A study of Bos taurus with 4 samples.

Results

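Mitochondrial ribosomal protein transcripts were read from the sperm RNA of Murrah buffalo bulls of high and low fertility. The genes were taken as every sample probe on the array whose gene name starts with MRPL or MRPS followed by a number and, at most, 1 further letter. The rule found 75 genes with 143 probes on 158 spots, out of 32429 gene names with 51282 probes. Of these, 46 are MRPL genes and 29 are MRPS genes, and the rule reads gene names and no signal. Each group held 2 arrays. A high-fertile sample was a pool of spermatozoa RNA from 2 breeding bulls rated high for conception rate, and a low-fertile sample was a pool from 2 bulls rated low. Neither group was treated, ages were not used here, and the array was a 1-colour Agilent design for cattle (Bos taurus), the organism the labels name, although the animals were buffalo (Bubalus bubalis). RNA was taken from spermatozoa selected on Percoll, a density gradient meant to remove other cells. The sources do not say which bulls made up which pool, so the p-values measure the spread between pools on 1 slide.

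The mitochondrial ribosome translates the few messages encoded by mitochondrial DNA, which specify core subunits of the respiratory chain and of ATP synthase. Its RNA is made in the mitochondrion, whereas its proteins are encoded in the nucleus, made in the cytosol and imported. Many of them descend from bacterial ribosomal proteins and others were added in the mitochondrial lineage. Mature spermatozoa carry their mitochondria in the midpiece and retain RNA from spermatogenesis, and a level measured here is that of a transcript in RNA, not of a ribosome.

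The probes that the main results rest on are DNA oligonucleotides of 60 bases, printed 5′ to 3′ as the array design gives them. The probe of MRPS33, the gene with the lowest adjusted p among the members, maps to chr4:107937047-107940836 of the cattle build Btau_3.1 on the minus strand, a span longer than the probe itself, and the probe of MRPL51, another gene lower in the low-fertile pools, maps to chr5:110692821-110692880 on the plus strand.
MRPS33: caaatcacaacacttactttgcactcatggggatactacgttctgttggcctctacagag
MRPL51: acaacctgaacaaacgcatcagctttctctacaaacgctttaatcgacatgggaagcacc
For 2 of the lower genes and 2 of the higher genes described further on, bases 16 to 45 of the probe are shown. MRPS18B maps to chr23:28288515-28288574 (minus), MRPL39 to chr1:10187809-10190000 (plus), MRPS26 to chr13:52688329-52688388 (minus) and MRPS18A to chr23:17791605-17791664 (minus).
MRPS18B: tcagacttgtaccagctgcattttctcaca
MRPL39: tcaaactaagcctacagagaagagtgcatc
MRPS26: ggttgggcctgatctgaaataaagcagttg
MRPS18A: gggcactggccctttgtccagaggaatatt
A pair of MRPL12 probes is shown because they read nearly the same stretch of 1 transcript. The capitals mark the 53 bases they share.
MRPL12, the first probe: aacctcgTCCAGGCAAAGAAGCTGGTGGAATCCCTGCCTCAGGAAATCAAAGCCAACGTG
MRPL12, the second probe: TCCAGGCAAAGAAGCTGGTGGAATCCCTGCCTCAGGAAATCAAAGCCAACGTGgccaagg

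Over all probes, the arrays of a group correlated at 0.981 and 0.980 and arrays of different groups at 0.924 to 0.935, over the 12552 probes that every array marked as well above background. Low-fertile pool 2 stood apart in detection, with 13033 probes well above background against 23228 to 25642 on the other arrays. High-fertile and low-fertile arrays occupied different rows of the slide, so position and fertility cannot be told apart. Of 16 sperm marker genes, 4 (AKAP4, SMCP, LDHC and PGK2) were not well above background on any array, and the summed signal of the list was 974 and 858 in the high-fertile pools against 986 and 787 in the low-fertile pools. PRM1, a protamine, was the only sperm marker called, higher by 0.67 (adjusted p = 0.0231, limma). The sum of 8 leukocyte markers was 21307 and 20285 in the high-fertile pools against 28553 and 27686 in the low-fertile pools, carried mainly by LYZ and PTPRC. PTPRC, the common leukocyte antigen, was higher in the low-fertile pools by 0.78 on the log2 scale (adjusted p = 0.01597, limma). The other 6 leukocyte markers tested did not pass, LYZ among them (0.38, adjusted p = 0.117). Of 6 epithelial markers none was called, and of 5 red cell markers HBB was called higher (1.24, adjusted p = 0.0118, limma), a gene well above background on both low-fertile arrays and 1 high-fertile array. The part of the leukocyte sum, PRM1 and HBB in the differences given next was not tested.

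Detection of the members followed that of the whole array. Of the 75 genes, the mark well above background was given to 44 and 46 in the pools of high-fertile bulls and to 47 and 26 in those of low-fertile bulls, pool 1 first. These counts correspond to 58.7%, 61.3%, 62.7% and 34.7% of the members, beside 55.4%, 55.1%, 59.0% and 33.6% of all genes. A gene is represented throughout by its brightest probe, and a mark on that probe is meant. On all 4 arrays 26 members were well above background, and 23 were on none.

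**Figure D1:**
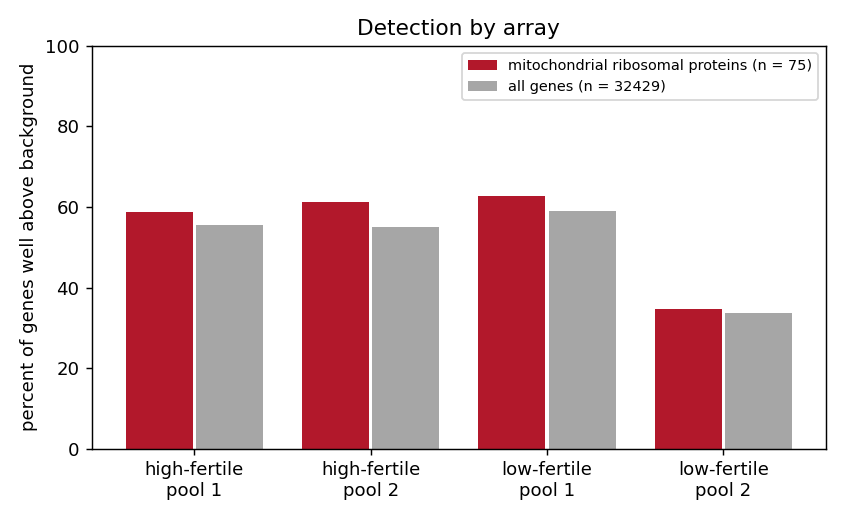
Percent of genes whose brightest probe was well above background (vertical axis) on each of the 4 arrays, for the 75 members and for all 32429 genes. Low-fertile pool 2 has the lowest bar for both sets, 34.7% and 33.6%.

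A gene was tested when both arrays of a group, or all arrays, marked its probe as well above background. That held for 42 members (56%, beside 51.0% of all genes). Of these, 16 passed only through the high-fertile pair and 0 only through the low-fertile pair. The tested members' processed signals, which are linear intensities after background subtraction, ran from 17.9 to 2325 in high-fertile pool 1, from 18.5 to 2082 in high-fertile pool 2, from 15.6 to 2184 in low-fertile pool 1 and from 5.96 to 2338 in low-fertile pool 2. The 75th percentile of all probes, to which every log2 level is set, was 36.7, 37.1, 37.0 and 32.7 in the same order.

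Between the groups, 10 of the 42 tested members were lower and 4 were higher in pools from low-fertile bulls at an adjusted p under 0.05 (limma, Benjamini-Hochberg over all 21033 probes tested), and 28 did not pass. Scaling to spike-in probes gave 15 lower and 2 higher members, beside 6975 lower and 532 higher of all 21033 probes tested. The median over the probes of a gene gave 4 and 3 members, beside 1803 and 804 of all 16685 genes so tested. No member was called without the filter on dim probes (limma, 15 at an unadjusted p under 0.05) or by the methods' t-test after adjustment (16 unadjusted). Neither of these called any probe of the whole array, so they do not set the members apart. By the limma fit given first, the shares of members called were 23.8% lower and 9.52% higher. Over the brightest probes of all 16549 genes tested, 16.3% were called lower and 9.6% higher. Lower calls outnumbered higher calls over all genes tested too (2700 against 1588), but not among genes well above background on all 4 arrays (987 against 1396). Of the 10 lower calls, 5 concerned genes that entered the test only through the high-fertile pair, and such a gene was by that rule not well above background on both arrays of the other pair. In RNA of pooled spermatozoa, fewer cells of a type and less RNA per cell cannot be told apart. With 2 arrays against 2, an exact permutation test of a single gene cannot go under p = 0.333, so each call rests on the spread that limma pools over probes.

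The median difference, low-fertile minus high-fertile on the log2 scale, was 0.03 over all 75 genes, beside 0.09 over all genes on the array. Over the 26 members well above background on all 4 arrays it was 0.07, beside 0.15 for all genes so detected. The median normalized level of those 26 members was 0.93 and 1.06 in the high-fertile pools against 0.95 and 1.05 in the low-fertile pools, so that the pools of the groups interleaved. For 27 tested members the pools of the groups did not overlap, with 15 on the lower and 12 on the higher side. Over all genes tested 34.3% were apart and lower and 35% apart and higher. Scaled to spike-in probes, the median difference over the 75 genes was -0.37, beside -0.40 over all probes tested.

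**Figure D2:**
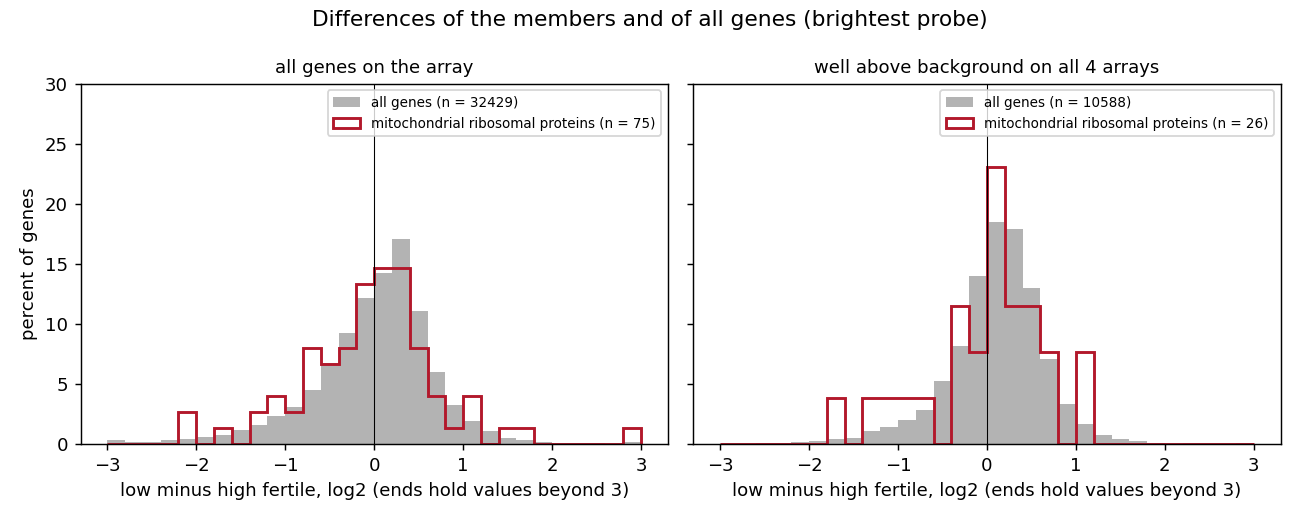
Percent of genes (vertical axis) by low-fertile minus high-fertile difference in log2 (horizontal axis), for the members (outline) and for all genes (grey), over all genes on the array and over those well above background on all 4 arrays. Both outlines lie over the grey, with member medians of 0.03 and 0.07.

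Among the 26 genes measured on all 4 arrays, 5 were lower and 4 higher, beside 9.32% lower and 13.2% higher of all 10588 genes so measured in the same fit. MRPS33, a small protein of the small subunit that arose in the mitochondrial lineage, had processed signals of 253 and 259 in the pools of high-fertile bulls, against 77.2 and 73.9. Both low-fertile pools were far below both high-fertile pools, a difference of -1.68 ± 0.14 (SE, n = 2 per group; adjusted p = 0.0026, limma). By the median over the 4 probes of MRPS33 the difference was -0.33 and did not pass (adjusted p = 0.535).

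MRPL10 forms the base of the flexible stalk that recruits translation factors. Its signals were 103 and 122 in the high-fertile pools against 52.7 and 37.0, both low-fertile pools below both high-fertile pools (-1.26 ± 0.18, SE; adjusted p = 0.0077, limma). MRPS14, a small subunit protein with a bacterial counterpart, gave 160 and 169 against 70.5 and 71.2 (-1.13 ± 0.15, SE; adjusted p = 0.0062, limma). MRPS15, also conserved from bacteria, where it binds ribosomal RNA, gave 84.9 and 81.5 against 42.5 and 40.9. Its difference was -0.91 ± 0.15 (SE; adjusted p = 0.0100, limma).

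MRPL4, a large subunit protein whose bacterial counterpart reaches into the peptide exit tunnel, showed the smallest lower value of these 5. The signals were 122 and 115 in the high-fertile pools against 75.4 and 71.4 in the low-fertile pools (-0.61 ± 0.15, SE; adjusted p = 0.0331, limma). In all 5 genes the pools of the groups were apart, which the rule for naming them required. Of all genes tested, 34.3% were apart on this side.

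The 4 higher genes were all measured on every array. MRPS26, a small subunit protein without a bacterial counterpart, had signals of 31.9 and 33.8 in the high-fertile pools against 72.0 and 57.2 in the low-fertile pools (1.05 ± 0.15, SE; adjusted p = 0.0069, limma). MRPS18A, one of the mitochondrial relatives of bacterial S18, rose from 125 and 135 to 249 and 241 (1.00 ± 0.15, SE; adjusted p = 0.0079, limma). The low-fertile values of both genes were above both high-fertile values, again as the naming rule required, and as in 35% of all genes tested.

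MRPL2, whose bacterial counterpart lies near the catalytic centre of the large subunit, gave 65.9 and 53.6 against 92.2 and 85.9 (0.67 ± 0.17, SE; adjusted p = 0.0387, limma). MRPL21, another large subunit protein of bacterial descent, gave 43.8 and 47.0 against 73.1 and 55.4. It was the weakest of the 4 (0.57 ± 0.16, SE; adjusted p = 0.0463, limma), and the low-fertile pools differed more from each other than the high-fertile pools did. MRPL21 did not pass in 14 of 19 alternative analyses, MRPL2 in 11 and MRPL4 in 9, with MRPL4 also at 0.027 in 1 more.

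**Figure D3:**
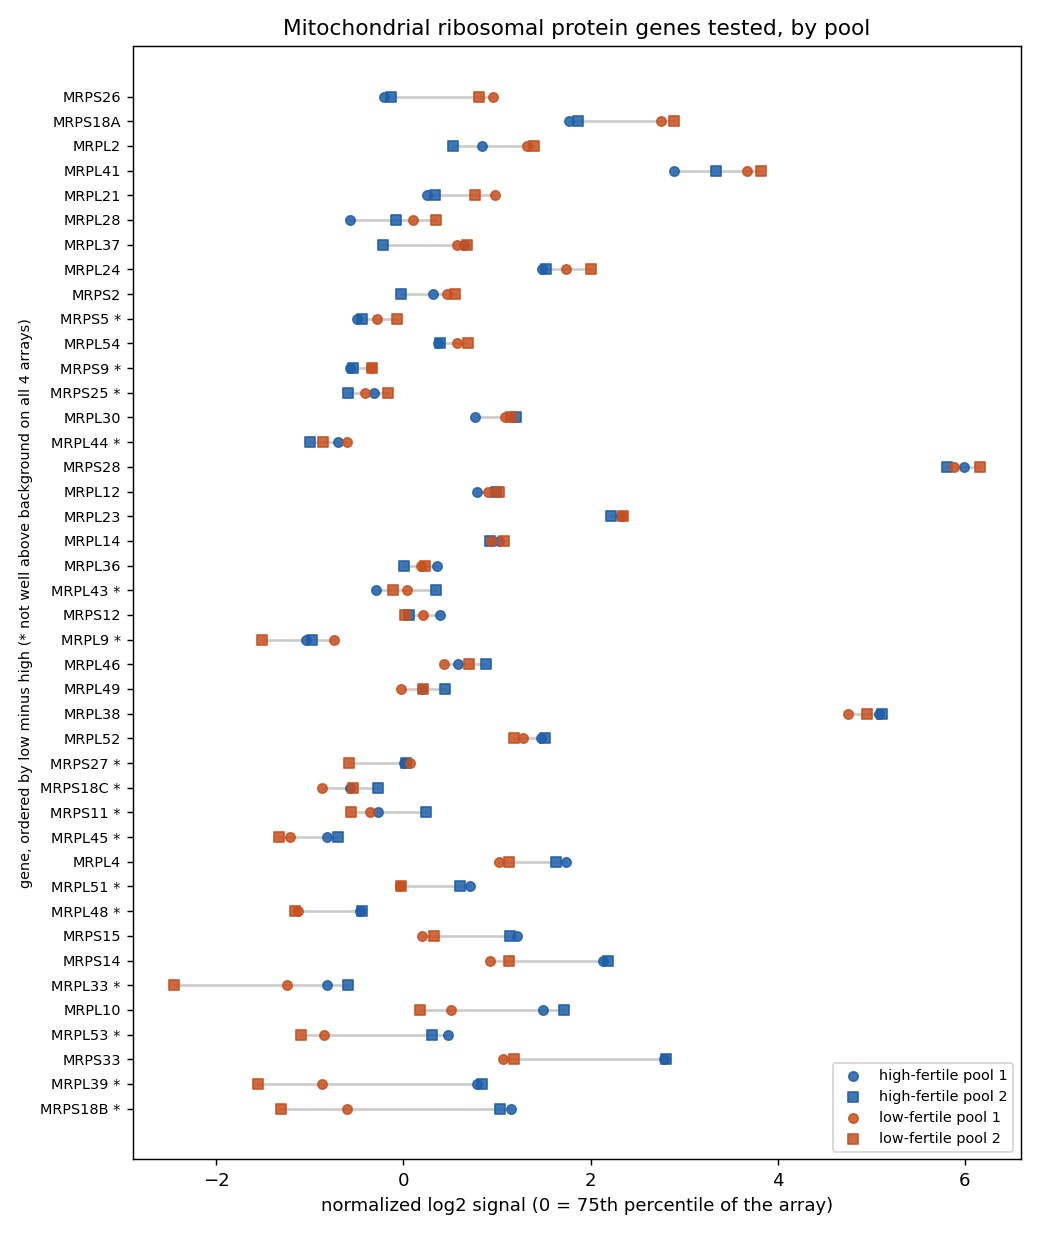
Normalized log2 signal of each tested member (horizontal axis, 0 is the 75th percentile of the array) in the 4 pools, with genes ordered by the difference between groups, and stars on genes not well above background on all 4 arrays. The points of MRPS33 lie apart by group at the lower end and those of MRPS26 at the upper end, whereas those of MRPS28, among the brightest, overlap.

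Each of the other 5 lower genes was well above background on 1 of the 2 low-fertile arrays. The 10th percentile of signals so marked was 35.3 in low-fertile pool 2, against 19.3 to 21.5 on the other arrays. MRPS18B, a second relative of bacterial S18, had signals of 81.7 and 76.0 in the high-fertile pools against 24.4 and 13.2 in the low-fertile pools (-2.05 ± 0.26, SE; adjusted p = 0.0052, limma). The low-fertile pool 1 spot of MRPS18B lay on a bright patch of the slide, meaning that at least 2 of its 6 nearest spots were raised by more than 2 log2 units. Without that spot only low-fertile pool 2 remains, where the gene was not well above background. MRPL39, a large subunit protein of the mitochondrial lineage, gave 63.4 and 66.6 against 20.2 and 11.1 (-2.03 ± 0.25, SE; adjusted p = 0.0050, limma). Under normexp background correction the differences of MRPS18B and MRPL39 were -0.91 and -0.74, both still called, so their size depends on the treatment of low signals. Genes called on all 4 arrays shrank too and kept their calls. The lower ones went to -1.10 (MRPS33), -0.72 (MRPL10), -0.62 (MRPS14), -0.44 (MRPS15) and -0.41 (MRPL4). The higher ones went to 0.51 (MRPS26), 0.63 (MRPS18A), 0.40 (MRPL2) and 0.36 (MRPL21).

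MRPL53, a mitochondrion-specific protein near the stalk, gave 51.2 and 45.7 against 20.6 and 15.3, a difference of -1.36 (adjusted p = 0.0049, limma). MRPL48 gave 26.6 and 27.4 against 17.0 and 14.7, a difference of -0.69 (adjusted p = 0.0198, limma). MRPL51 gave 59.96 and 56.3 against 36.2 and 32.1, a difference of -0.68 (adjusted p = 0.0218, limma). The high-fertile values of these 3 large subunit genes were above both low-fertile values, as in 34.3% of all genes tested. MRPL48 and MRPL51 each lost the call in 9 alternative analyses, and MRPL53 in 3. Under normexp MRPL53 shrank to -0.42 and was still called, while MRPL48 (-0.16) and MRPL51 (-0.18) were not.

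A further pair of genes was not well above background on either low-fertile array. MRPL33, a small protein of bacterial descent, had 20.8 and 24.6 in the high-fertile pools against 15.6 and 5.96 in the low-fertile pools. The lowest signal well above background on each low-fertile array, or the signal of the probe where that was higher, was set as a floor. Against this floor MRPL33 was 2.18-fold higher in the high-fertile pools, and it missed the threshold (adjusted p = 0.0857, limma). That fold is no lower limit, since the 95% interval of the log2 difference ran from -2.13 to -0.16. MRPL45, which attaches the ribosome to the inner membrane, had 20.8 and 22.9 against 16.03 and 13.02 and did not pass (adjusted p = 0.0553, limma). Against the same floor it was 1.42-fold higher in the high-fertile pools. This is the fold of the measured means, since both low-fertile signals exceeded the lowest marked signal. It is no lower limit either, with a 95% interval of the log2 difference from -0.88 to -0.14.

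The S18 relatives differed in their calls. MRPS18A was higher and MRPS18B lower, while MRPS18C gave 24.7 and 30.8 in the high-fertile pools against 20.3 and 22.4 in the low-fertile pools. The MRPS18B call rests on a low-fertile pool 1 spot on a bright patch and a pool 2 signal not well above background. The MRPS18C difference was -0.29, with a 95% interval from -0.77 to 0.19 (adjusted p = 0.309, limma). Each of these genes had 1 probe on the array, and the differences between the genes were not tested.

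The members with the strongest probe signals mostly did not pass. MRPS28, a small subunit protein, had 2325 and 2082 in the high-fertile pools against 2184 and 2338 in the low-fertile pools, with the groups overlapping (0.12, 95% interval -0.30 to 0.55). MRPL38, a mitochondrion-specific protein of the large subunit, gave 1241 and 1282 against 996 and 1011 (-0.24, interval -0.62 to 0.14; adjusted p = 0.277, limma), and it passed as lower under the spike-in shift and under normexp. MRPL23, whose bacterial counterpart sits at the exit of the peptide tunnel, gave 183 and 173 against 187 and 166 (0.07, interval -0.28 to 0.42).

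MRPL41, a mitochondrion-specific large subunit protein, gave 272 and 376 in the high-fertile pools against 473 and 461 in the low-fertile pools. Its pools were apart, but the difference of 0.63 ± 0.20 (SE) missed the threshold (adjusted p = 0.0672, limma), and it passed in 4 of 19 alternatives, among them the fit limited to probes marked on every array (adjusted p = 0.0302). In that fit 5 members were lower and 5 higher, beside 12.4% and 21.6% of the genes it held. MRPS18A, described above, completes the 5 members of strongest signal. Signals of different probes also depend on the probe, so no order of abundance between the genes is given.

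Of the 26 members measured on all 4 arrays, 17 did not pass, and their differences ran from -0.26 to 0.63. For 14 of them the 95% interval lay within 1 log2 unit of 0 on both sides. Across the 26 genes the median half-width of the interval was 0.40 and ran from 0.35 to 0.74.

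Several of these genes lay on the higher side without passing. MRPL28, a large subunit protein of bacterial descent, gave 24.7 and 35.2 in the high-fertile pools against 39.9 and 41.4, and the groups did not overlap (0.55 ± 0.22, SE; adjusted p = 0.116, limma). MRPL24 gave 102 and 107 against 123 and 131 (0.37 ± 0.16, SE; adjusted p = 0.146). MRPS2, whose bacterial counterpart binds late in small subunit assembly, gave 45.5 and 36.4 against 51.0 and 47.8 (0.36 ± 0.17, SE; adjusted p = 0.174). For MRPL54, a mitochondrion-specific protein, the values were 47.3 and 48.6 against 54.9 and 52.7 (0.25 ± 0.14, SE; adjusted p = 0.240).

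For 5 further members the 95% interval covered 0, as it also did for MRPL24, MRPS2 and MRPL54. MRPL14, which lies at the interface of the subunits in bacteria, gave 74.6 and 70.5 against 70.9 and 68.6, a difference of 0.03 with a 95% interval from -0.34 to 0.40. MRPL36, a short protein of bacterial descent, gave 46.9 and 37.2 against 42.2 and 38.3 (0.03, interval -0.41 to 0.47). MRPS12, a protein of the decoding site, gave 48.0 and 38.8 against 42.7 and 33.1 (-0.11, interval -0.56 to 0.33). MRPL46 gave 54.9 and 68.3 against 50.2 and 52.9, with overlapping pools on the normalized scale (-0.16, interval -0.62 to 0.29), and MRPL52 gave 102 and 106 against 89.8 and 74.2 (-0.26, interval -0.62 to 0.09).

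**Figure D4:**
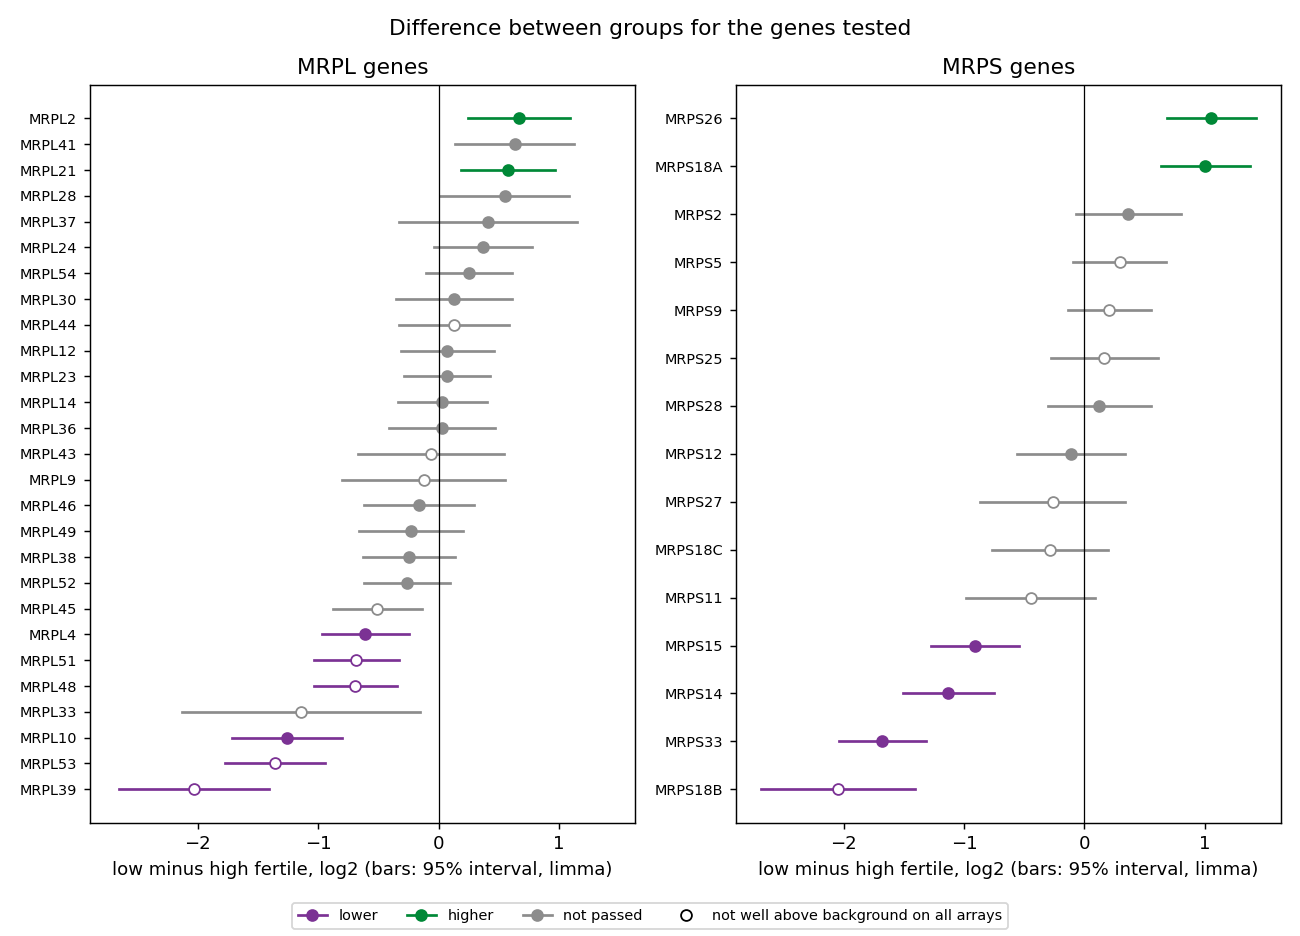
Low-fertile minus high-fertile difference (horizontal axis, log2) with its 95% interval from limma for the 27 tested MRPL genes (left) and the 15 tested MRPS genes (right), coloured by call, with open circles for genes not well above background on all 4 arrays. Open circles are frequent at the lower end and absent among the 4 higher genes.

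By subunit name, 6 of 27 tested MRPL genes were lower and 2 higher, and 4 of 15 tested MRPS genes were lower and 2 higher, to be read beside the 16.3% lower and 9.6% higher of all genes tested. Neither this split nor the next was tested. The median difference over all MRPL genes was 0.09 and over all MRPS genes -0.14. Over the 18 MRPL and 8 MRPS genes measured on all arrays the medians were 0.07 and 0.01. Of 46 genes with a bacterial counterpart 22 were tested, 4 were lower (MRPL4, MRPL10, MRPS14 and MRPS15) and 2 higher (MRPL2 and MRPL21). All 4 of those lower genes were well above background on all 4 arrays. Of 29 mitochondrion-specific genes 20 were tested, 6 were lower and 2 higher (MRPS18A and MRPS26), and 5 of the 6 lower genes were not measured on all arrays. MRPS33 was the exception. This split counts MRPS18C alone as the counterpart of bacterial S18. With MRPS18A and MRPS18B moved to that class as well, 5 of 24 tested genes with a bacterial counterpart were lower and 3 higher, and 5 of 18 mitochondrion-specific genes were lower and 1 higher.

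Of the members, 45 had more than 1 probe, and 16 had at least 2 tested probes. In 9 of these genes the tested probes shared a sign, in 7 they did not, and in 0 were probes called in opposite directions. The range between probes of a gene had a median of 0.51. In 4 genes a probe other than the brightest was called lower while the brightest did not pass. MRPL49 had 1 such probe with 20.5 and 25.9 in the high-fertile pools against 6.54 and 7.78 in the low-fertile pools, where neither value was well above background. Against the floor used for MRPL33 it was 2.86-fold higher in the high-fertile pools (adjusted p = 0.0061, limma), again no lower limit. The brightest MRPL49 probe gave 42.2 and 50.5 against 36.5 and 37.9 (-0.23, adjusted p = 0.361, limma), and the probes of this gene spanned 1.68 log2 units, the widest range.

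The second probe of MRPL30 gave 30.9 and 35.0 in the high-fertile pools against 16.9 and 13.6 in the low-fertile pools (-1.03, adjusted p = 0.0079, limma), whereas its brightest probe differed by 0.13 (adjusted p = 0.640). The second probe of MRPL37 differed by -0.63 (adjusted p = 0.0371) and the brightest by 0.41 (adjusted p = 0.337), in opposite directions. The MRPS11 probes shared 51 bases and differed by -0.86 (adjusted p = 0.0124) and -0.45 (adjusted p = 0.176).

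Called genes too had probes of unlike response. The second MRPL10 probe gave 64.5 and 71.1 in the high-fertile pools against 68.2 and 44.0 in the low-fertile pools, with a difference of -0.22 (adjusted p = 0.441, limma) beside -1.26 for the brightest, and by their median MRPL10 did not pass (adjusted p = 0.0644). Of the other MRPS33 probes, 1 gave 27.7 and 28.4 against 24.2 and 8.60, and the other 2, which share 41 bases, were not well above background on any array and differed by 0.31 and 0.18. The MRPS33 call therefore rests on the single probe printed above. The second tested MRPL48 probe differed by -0.04, beside -0.69 for the brightest. The other probes of MRPL51 and MRPL53 were not well above background on any array, and with the median over its probes MRPL51 was at -0.34 (adjusted p = 0.691) and MRPL53 at -0.52 (adjusted p = 0.441). The second MRPS14 probe was dim everywhere and differed by -1.09. The second MRPL4 probe was too dim to be tested, with 18.2 and 7.199 in the high-fertile pools against 21.1 and 13.7, a difference of 0.66 and opposite in sign to the brightest.

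The overlapping MRPL12 probes printed above gave 24.2 and 23.3 in the high-fertile pools against 31.5 and 21.8, and 23.6 and 22.3 against 39.0 and 26.1. Their differences were 0.23 (adjusted p = 0.372) and 0.56 (adjusted p = 0.0758), neither of which passed, although 53 of their 60 bases are the same. MRPL12 is the stalk protein carried by MRPL10, and its brightest probe gave 63.5 and 73.7 against 69.5 and 66.2 (0.07, adjusted p = 0.746, limma). The groups overlapped for this probe.

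**Figure D5:**
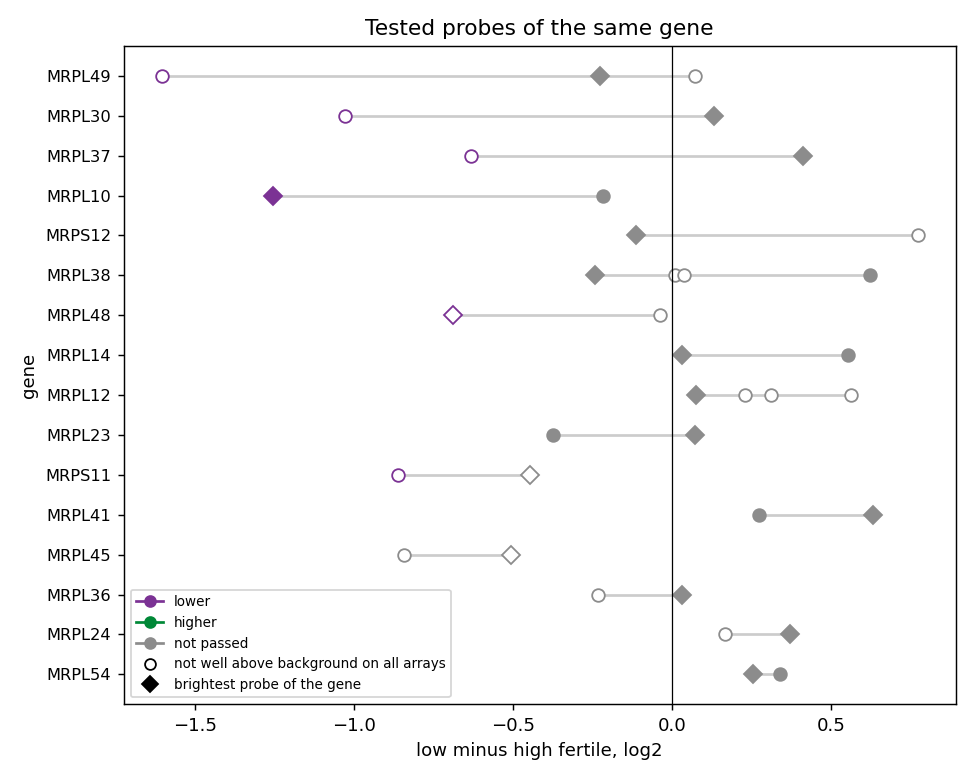
Low-fertile minus high-fertile difference (horizontal axis, log2) of every tested probe for the 16 genes with at least 2 tested probes, with diamonds for the brightest probe and open symbols for probes not well above background on all 4 arrays. MRPL49 has the widest range, 1.68, and no gene has calls on both sides of 0.

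Of the 33 members that were not tested, 23 had no array well above background. MRPS16, a small subunit protein of bacterial descent, had signals of 3.54 and 3.34 in the high-fertile pools against 4.14 and 6.39 in the low-fertile pools, and MRPL3 had 4.45, 4.14, 3.48 and 6.61 in the same order. For MRPL18 the pools of high-fertile bulls gave 3.60 and 3.96 and those of low-fertile bulls 1212 and 6.56, so 1 array alone was high. That spot lay on a bright patch, and a second MRPL18 probe sharing 37 bases gave 11.4 and 12.9 in the high-fertile pools against 3.13 and 6.03 in the low-fertile pools. MRPL22, whose low-fertile pool 1 spot also lay on a bright patch, gave 11.6 and 6.17 against 59.2 and 7.96. Of the 158 member spots 5 lay on such patches, all of them in low-fertile pool 1.

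The proteins of the mitochondrial ribosome act with factors for initiation, elongation and recycling and with enzymes that assemble and modify its RNA. Of 45 such genes listed, 44 were on the array and 21 were tested, and limma called 7 of them lower and 1 higher, beside the 16.3% and 9.6% of all genes. Of the 7 lower genes, 5 (DDX28, MTERFD1, MTIF3, GFM2 and GUF1) were not well above background on either low-fertile array and entered the test only through the high-fertile pair. Initiation, elongation and recycling factors contributed 3 of those genes out of 6 tested, none of the 6 being measured on all 4 arrays, assembly and RNA modification 3 lower and 1 higher out of 10, and translational activation 1 lower out of 2. Of 7 mitoribosomal proteins listed under other names, 3 were tested and 0 were called by limma. Their adjusted p-values were 0.334 (PTCD3), 0.403 (AURKAIP1) and 0.361 (GADD45GIP1).

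GFM2, the mitochondrial factor that recycles ribosomes, gave 23.5 and 29.1 in the high-fertile pools against 8.18 and 7.55 in the low-fertile pools, where it was not well above background (adjusted p = 0.0033, limma). GUF1, a mitochondrial relative of elongation factors, gave 25.8 and 24.1 against 8.42 and 7.14, again not well above background in the low-fertile pools (adjusted p = 0.0027, limma). The high-fertile signals of GFM2 and GUF1 lay below 35.3, the 10th percentile of signals well above background in low-fertile pool 2. No gene of this list was recomputed under the alternative analyses. SLIRP, which stabilises mitochondrial messages, was measured on all 4 arrays with 180 and 193 against 69.8 and 58.7 (-1.46 ± 0.14, SE; adjusted p = 0.0031, limma). The higher gene was MPV17L2, an assembly factor, with 23.4 and 24.5 against 40.5 and 28.8 (0.60, adjusted p = 0.04996, limma). MPV17L2 was well above background on 1 of the 2 low-fertile arrays and entered the test through the high-fertile pair. TUFM, the elongation factor that delivers transfer RNA, gave 19.4 and 25.6 against 19.2 and 16.3 and did not pass (adjusted p = 0.353, limma).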

How the data were processed

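Labelled RNA of 4 sperm pools was hybridised to 1 slide and, per the labels and methods, read with Feature Extraction 11.5.1.1. The scanner files deposited by the authors hold linear intensity values with background subtracted. The authors' table holds log2 values after a 75th percentile shift (median -1.47 to -1.13 per array) and was an alternative only. From the processed intensity, outlier spots were left out, spots of a probe averaged on the log2 scale and each array's 75th percentile over non-control probes subtracted. A probe was well above background when at least 0.5 of its spots were marked so. limma 3.58.1 (R 4.3.3) was fitted to 21033 probes with Benjamini-Hochberg adjustment, after tests on simulated data. Tables were joined with Python 3.11.15, pandas 2.3.3 and numpy 2.4.6. The number of arrays limits the precision. No tested probe was saturated.

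The members, pathway and marker lists were chosen with earlier results of these data known. Genes named are those of the 5 strongest probes, up to 8 per direction that passed with all arrays well above background and the pools apart, up to 5 per direction that passed through 1 group, genes with opposite calls, and up to 3 pathway genes per direction. MRPS18C, MRPL28, MRPL24, MRPS2, MRPL54, MRPL14, MRPL36, MRPS12, MRPL46, MRPL52, MRPL33, MRPL45, MRPL49, MRPL30, MRPL37, MRPS11, MRPL12, MRPS16, MRPL3, MRPL18, MRPL22, TUFM, PTCD3, AURKAIP1 and GADD45GIP1 were chosen after their values were seen. Gene names are the array's. RefSeq accessions gave the same current symbol for 124 of 143 probes and none for the others. Coordinates are the file's, on Btau_3.1. Sequences are the array's probes, and no annotation of that build was used, so exon and UTR positions are not given.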

Additional observations from a re-analysis of the deposited data

How the results depend on the processing

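The count of 10 lower and 4 higher members was recomputed under 19 alternatives. Scaling to spike-in probes, which moves the median of all tested probes to -0.40 on the log2 scale, gave 15 lower, 2 higher and a median member difference of -0.37, and turned MRPL23 to -0.33 and MRPS28 to -0.27, while MRPL38 passed at -0.64 (adjusted p = 0.0222, limma). Without a filter on dim probes limma called 0 lower and 0 higher (15 at an unadjusted p under 0.05), and likewise 0 of all 51282 probes. With the filter of 4 arrays there were 5 lower and 5 higher. With at least 2 arrays there were 9 lower and 2 higher, beside 2990 and 1224 of all 23836 probes so tested. The methods' t-test called 0 lower and 0 higher after Benjamini-Hochberg adjustment and 16 unadjusted. After adjustment it called 0 probes over the whole array too. Taking each gene's median probe value gave 4 lower and 3 higher, with MRPL23 at -0.15, MRPL38 at 0.32, MRPL4 at 0.027 and the calls of MRPS33 (-0.33, adjusted p = 0.535, limma), MRPL53, MRPL51, MRPL48, MRPL10, MRPL2 and MRPL21 lost. Under normexp, with an offset of 50, MRPL23 was -0.092, the values of MRPL39, MRPS18B and MRPL53 shrank to -0.74, -0.91 and -0.42 with their calls kept, MRPL48 and MRPL51 lost theirs, and MRPL38 passed at -0.26 (adjusted p = 0.0214). The genes called on all 4 arrays shrank as well and kept their calls. With an intensity trend MRPL48 missed the threshold (adjusted p = 0.0525). Under local spatial correction MRPL23 was -0.074, MRPL21 fell to 0.021 (adjusted p = 0.954, limma), and MRPL2, MRPL4, MRPL48 and MRPL51 lost their calls. MRPL21 also missed the threshold with quantile normalization (adjusted p = 0.0538) and with the authors' deposited values (adjusted p = 0.0527). Leaving out 1 pool at a time gave 6 to 9 lower and 2 to 2 higher members. Without either high-fertile pool there were 6 lower. MRPL2, MRPL21, MRPL4 and MRPL51 lost their calls whichever pool was left out, MRPL48 in each case except without low-fertile pool 1, and MRPS15 without high-fertile pool 1 (adjusted p = 0.0571) or 2 (adjusted p just above 0.05). MRPS28 ranged from -0.016 (without low-fertile pool 2) to 0.26 (without low-fertile pool 1). The lone pool of a group is then assumed to vary like the others. Of 337 values of 18 named members, 248 kept direction and side of the threshold, 75 fell short of it, 6 newly passed and 8 changed sign.

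Samples with the same replicate number did not deviate together (r = 0.01 over 21024 probes), so the numbers do not pair the pools. With the replicate block there were 9 lower and 2 higher members, beside 3672 and 1659 of all 21033 probes tested. Lower calls made up 65.6% of all calls over the array, 92.9% with the spike-in shift and 37.5% among probes well above background on all 4 arrays. Of the 42 tested members, 16 were well above background on both arrays of the high-fertile group alone. Of these, 14 were so marked in low-fertile pool 1 and not in pool 2, and 2 in neither.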
